A study of Mus musculus with 4 samples.

Results

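Inhibins and activins are dimers built from shared subunits, and the 9 mouse genes described here encode those subunits, the proteins that trap them and the receptors that read them: Inha, Inhba, Inhbb, Fst, Fstl3, Acvr1b, Acvr2a, Acvr2b and Tgfbr3. They were followed in chromatin loop lists made by Micro-C, a micrococcal nuclease form of chromosome conformation capture, from granulosa cells collected by puncture of the ovaries of 21 days old mice. All mice had received 5 IU of eCG (the PMSG of the library names), given as 46 h before collection in one label and as 44 h in the treatment protocol. In the PMSG group (2 libraries) cells were taken at 0 h of hCG, and in the hCG group (2 libraries) they were taken 6 h after 5 IU of hCG, the analogue of the ovulatory gonadotropin surge. No genotype or strain is given in the labels, which also do not say whether the libraries of a group came from separate mice. The spread between them may therefore be technical.

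A loop was assigned to a gene where an anchor, 1 of its 2 ends, lay within 10 kb of the gene body in the mm10 assembly, or where a loop spanning under 500 kb enclosed the gene. This rule selected 78 of 30437 loop calls, 22 and 20 in PMSG replicates 1 and 2, and 19 and 17 in hCG replicates 1 and 2. Calls with both anchor midpoints within 20 kb of each other were joined, which gave 35 distinct loops at these genes of 12920 in all. The lists report contacts between DNA positions and hold no RNA, so neither the cell type nor the expression of the 9 genes could be checked from markers.

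Granulosa cells secrete inhibins and activins. Inha encodes the alpha subunit that pairs with a beta subunit, from Inhba or Inhbb, to form an inhibin, and pairs of beta subunits form the activins. Activins bind a type II receptor (Acvr2a, Acvr2b), which recruits the type I receptor encoded by Acvr1b, and the signal is carried by SMAD proteins. Follistatin (Fst) and its relative from Fstl3 bind activins and block them, while betaglycan (Tgfbr3) holds inhibin on the type II receptor. In the ovary, inhibin feeds back on pituitary FSH and activin acts within the follicle.

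The start sites of Inha, Inhba, Inhbb, Fstl3 and Acvr2a lay inside at least 1 loop anchor. The promoters of the 4 that encode ligand subunits or an antagonist are shown, each from 250 bases before to 50 bases after a RefSeq start site (GRCm38.p6, the same assembly as mm10). For Inha and Inhba that site, chr1:75507609 and chr13:16011851, lies inside the annotated gene, which begins at 75507077 and 16004256. Other start sites of these genes were not examined. Capitals mark AGGTCA on either strand, a short element read by NR5A and other nuclear receptors.
Inha, chr1:75507359-75507658, plus strand: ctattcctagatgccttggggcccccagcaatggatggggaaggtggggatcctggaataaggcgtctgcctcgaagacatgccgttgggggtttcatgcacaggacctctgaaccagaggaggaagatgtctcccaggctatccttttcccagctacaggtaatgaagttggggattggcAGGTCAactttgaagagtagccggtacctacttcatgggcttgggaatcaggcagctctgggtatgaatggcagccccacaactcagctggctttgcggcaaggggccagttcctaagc
Inhba, chr13:16011601-16011900, plus strand: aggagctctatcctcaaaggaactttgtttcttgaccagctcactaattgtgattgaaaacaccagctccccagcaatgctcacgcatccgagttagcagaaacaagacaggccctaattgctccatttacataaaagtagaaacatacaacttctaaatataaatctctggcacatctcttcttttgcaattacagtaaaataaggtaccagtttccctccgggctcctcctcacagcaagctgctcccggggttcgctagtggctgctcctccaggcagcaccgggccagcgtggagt
Inhbb, chr1:119422199-119422498, minus strand: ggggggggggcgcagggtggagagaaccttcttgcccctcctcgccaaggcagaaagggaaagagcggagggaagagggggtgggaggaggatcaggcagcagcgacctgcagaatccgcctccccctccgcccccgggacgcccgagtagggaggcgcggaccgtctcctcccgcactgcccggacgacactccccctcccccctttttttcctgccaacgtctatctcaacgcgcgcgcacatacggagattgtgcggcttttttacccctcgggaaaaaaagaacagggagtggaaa
Fstl3, chr10:79777024-79777323, plus strand: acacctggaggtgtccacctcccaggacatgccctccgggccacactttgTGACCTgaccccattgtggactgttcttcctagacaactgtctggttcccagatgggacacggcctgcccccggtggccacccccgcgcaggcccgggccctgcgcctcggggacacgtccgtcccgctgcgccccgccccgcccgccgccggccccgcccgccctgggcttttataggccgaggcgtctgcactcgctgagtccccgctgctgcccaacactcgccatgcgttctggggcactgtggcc
The element was at -69 in Inha and, on the opposite strand, at -200 in Fstl3, and it was in none of the other 5 promoters of these genes that were matched. Of 32619 mouse promoters of the same length, 16.2% held it on either strand. None of the 7 promoters held the cAMP response element TGACGTCA, its core TGACG, the AP-1 site TGANTCA, the GATA site AGATAA or the SMAD palindrome GTCTAGAC, each searched on both strands, which were in 1.80%, 20.9%, 7.85%, 11.2% and 0.215% of all promoters. TGACG lies within TGACGTCA, so those shares overlap. The Inhba promoter was the poorest in G and C of the 7, at 47.7%, and Inha had 55.3%. Inhbb reached 64.3% and Fstl3 70.7%, against a median of 53% over all promoters.

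Inhba had the most calls of the 9 genes, with 5 and 7 in PMSG and 5 and 5 in hCG. Only 0.171% of 21627 protein-coding genes had at least as many by the same rule. Acvr2a followed with 4, 5, 3 and 3 calls, and Fst had 4, 2, 4 and 3. Tgfbr3 had 3, 2, 2 and 3 calls, 8 of its 10 enclosing the gene without an anchor at it. Inha and Inhbb had the same counts, 2 and 2 in PMSG and 1 and 1 in hCG. Fstl3 had 1, 0, 2 and 1 calls. Acvr1b had 1 call, in PMSG replicate 1, and Acvr2b had 1, in hCG replicate 1. The median over the 9 genes was 1.5 calls per library, and over all genes it was 0.75.

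**Figure D1:**
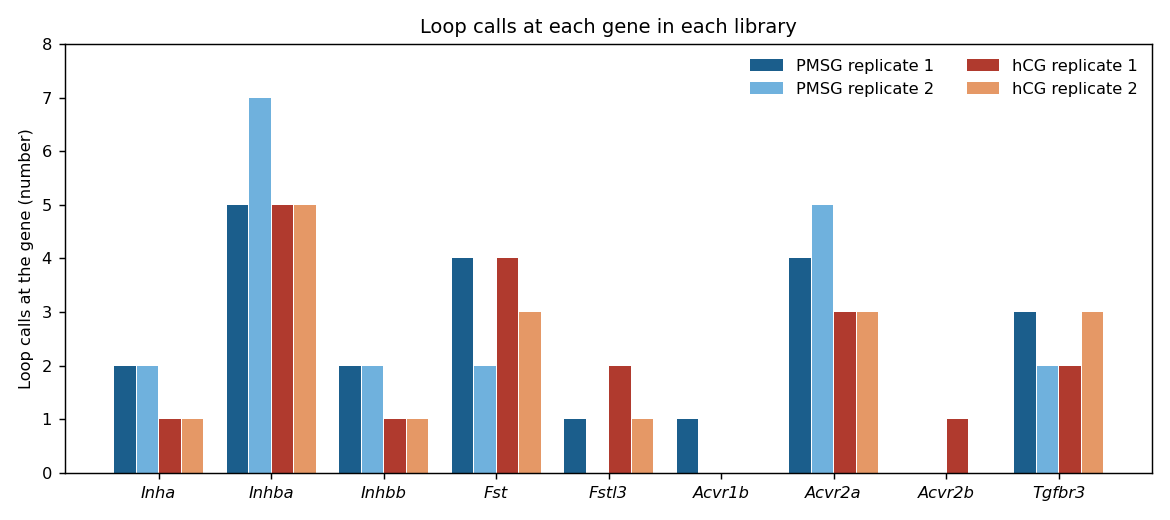
Number of loop calls (vertical axis) at each of the 9 genes, with 1 bar for each of the 4 libraries. Inhba has 5 or more calls in every library, Inha, Inhbb and Acvr2a have more in both PMSG libraries than in either hCG library, and Acvr1b and Acvr2b have 1 call each.

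Both PMSG libraries had more calls than either hCG library at 3 of the 9 genes, Inha, Inhbb and Acvr2a, a pattern that 3.99% of all genes showed. The reverse pattern was at none of the 9 and at 5.19% of all genes, a denominator in which 32.0% of genes had no call at all. At Inha the excess in PMSG came from enclosing loops. Its anchored calls numbered 1 and 0 in PMSG and 1 and 1 in hCG. Per 1000 loops of a list, calls at the 9 genes numbered 2.65 and 3.06 in PMSG and 2.48 and 2.14 in hCG. The groups did not overlap, with means of 2.86 ± 0.292 (SD, n = 2) and 2.31 ± 0.238 (SD, n = 2) and a difference of -0.54, -0.34 without PMSG replicate 2 and -0.98 at FDR values of at most 0.01. The exact two-sided permutation test gave p = 0.333, which is the smallest p that 2 libraries against 2 can give. Median loop span at the 9 genes was 342.5 and 425 kb in PMSG and 375 and 400 kb in hCG, and these ranges overlapped (difference 3.75 kb, exact permutation p = 1). This difference was -1.25 kb with anchors within 25 kb, -67.5 kb with anchored loops only, 21.2 kb with anchors at the gene itself and 67.5 kb at FDR values of at most 0.01. It was -37.5 kb without PMSG replicate 1 and -8.75 kb without hCG replicate 2.

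Loops listed for the 2 hCG libraries and for no PMSG library are called gained, those with the reverse pattern lost, and those in all 4 lists common. A list holds only the pixels that passed the caller, so a loop absent from a list has no contact count there, and absence was not a measurement of weaker contact. Of the 35 distinct loops, 2 were gained, 3 were lost, 9 were common and 21 had another pattern, 13 of these being in a single library. Among all distinct loops, 5.05% were gained, 3.80% lost and 29.9% common. Gained loops were at 2 of the 9 genes, Inhba and Fstl3, beside 6.66% of all genes. Lost loops were at 3, Inhba, Inhbb and Acvr2a, beside 5.40% of all genes. Common loops were at 4 of the 9, Inhba, Fst, Acvr2a and Tgfbr3, beside 36.5% of all genes, and 6 of 9 had a call in every library, beside 40.3%. With 1 library left out, so that a single list stands for its group, fewer lists have to agree and more loops fall in these classes. Gained loops were then at 5 of the 9 genes without PMSG replicate 1 and at 5 without hCG replicate 2, beside 15.9% and 19.5% of all genes, and at 4 without hCG replicate 1, beside 21.1%. Lost loops were at 6 without PMSG replicate 2, beside 23.1% of all genes, and at 4 without PMSG replicate 1, beside 14.4%.

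The lists held 8305 and 6533 loops in PMSG and 7664 and 7935 in hCG. Their depth was compared through the contacts expected around 435 pixels called at the same position in all 4 lists: relative to PMSG replicate 1, the expectation was 0.623 for the second PMSG library and 0.592 and 0.744 for hCG replicates 1 and 2. PMSG replicate 1 was thus the deepest library, and PMSG replicate 2 lay between the hCG libraries. The share of calls in 5 kb bins, the finest in these lists beside 10 and 25 kb, was 35.5% and 25.8% in PMSG and 28.2% and 33.0% in hCG. Deeper libraries allow finer bins and more calls, and the part of depth in the differences between lists was not tested.

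At the activin subunit gene Inhba (gene ID 16323, chr13:16004256-16031609, plus strand), all 22 calls had an anchor within 10 kb of the gene and all reached downstream. Of these, 16 ended in the stretch between Inhba and Sugct, which has no annotated protein-coding gene, and 6 ended inside Sugct. In 11 of the 22 the anchor contained the start site used here, chr13:16011851, 4 of 12 in PMSG and 7 of 10 in hCG. Wider bins hold more positions, and 5 of the 12 calls in PMSG and 7 of the 10 in hCG were in 25 kb bins. The 4 common loops joined the gene to sites centred 276, 451, 653 and 1426 kb from the start site, the last inside Sugct. For the loop at 1426 kb, the Inhba anchor in PMSG replicate 2 and hCG replicate 1 did not overlap the gene. It lay 11.9 kb from the start site. The expected count is the caller's donut expectation, read from the pixels around the loop, and the ratio of observed to expected contacts measures how far the loop stands out. Ratios depend on bin size, with medians over whole lists from 5.48 to 7.56 in 5 kb bins, 3.43 to 4.32 in 10 kb bins and 2.53 to 2.71 in 25 kb bins.

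The loop at 276 kb had 41 contacts where 14.1 were expected in PMSG replicate 1 (10 kb bins) and 19 where 2.67 were expected in PMSG replicate 2 (5 kb bins). In hCG replicates 1 and 2 it had 89 over 35.3 and 92 over 34.8, both in 25 kb bins. The loop at 451 kb had 15 contacts over 2.35 in PMSG replicate 1 (5 kb bins) and 30 in PMSG replicate 2 (10 kb bins), ratios of 6.38 and 7.505. Its hCG calls were again in 25 kb bins, with 87 contacts over 27.9 and 78 over 33.5, ratios of 3.12 and 2.33. At both sites the calls in the PMSG libraries were in finer bins than those in the hCG libraries, so their ratios cannot be set side by side.

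The loop at 653 kb was called in 5 and 25 kb bins in PMSG (14 contacts over 1.79 and 53 over 16.1) and in 10 kb bins in both hCG libraries (24 over 5.85 and 24 over 5.90). The longest common loop, of 1425 to 1450 kb, had 66 contacts over 20.6 in PMSG replicate 1, 43 over 17.0 in PMSG replicate 2 and 56 over 14.6 in hCG replicate 1, all in 25 kb bins. In hCG replicate 2 it was in 10 kb bins with 18 contacts over 3.64. The ratios in the 25 kb bins, 3.20 and 2.53 in PMSG and 3.83 in hCG, have 95% Poisson intervals that overlap (2.48 to 4.08, 1.83 to 3.41 and 2.89 to 4.97). These intervals cover counting error only. A loop of 1600 kb was counted at Inhba in PMSG replicate 2 alone, with 40 contacts over 12.9 in 25 kb bins. The same loop was in PMSG replicate 1 (23 over 4.13) and hCG replicate 2 (21 over 2.93). There it was in 10 kb bins, more than 10 kb from the gene and so outside the rule.

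Inhba alone among the 9 genes had both a gained and a lost loop, and it also had the most distinct loops, 8. The share of all genes with both was not counted. The gained loop spanned 750 kb, from the bin holding the start site to chr13:16750001-16775000, and was in 25 kb bins in both hCG libraries. It had 99 contacts over 27.9 in hCG replicate 1 and 96 over 30.9 in hCG replicate 2, ratios of 3.55 and 3.11. Against the highest of the caller's 4 expected counts, 50.2 and 52.5, the ratios were 1.97 and 1.83. The nearest annotated protein-coding gene to that partner was Sugct, 82.5 kb away. The lost loop spanned 305 to 320 kb, to a site 328 kb from the start site, with 18 contacts over 2.99 in PMSG replicate 1 and 14 over 2.22 in PMSG replicate 2, all in 5 kb bins. Its Inhba anchors lay 8.15 and 18.2 kb past the start site. When loops were joined within 50 kb it merged with the neighbouring common loop at 276 kb, and when overlapping anchors were required its PMSG calls were no longer 1 loop. Under each of 5 further matching rules and list filters, the gained loop was gained again.

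The partner sites of Inhba were also looped to one another. Partner sites were taken from loops that were gained, lost or in at least 3 lists, which gave 7 for Inhba. Between them there were 8 and 6 calls in PMSG, against 1 and 1 in hCG. The site at 328 kb entered this set through the lost loop, so only through the PMSG libraries, and it took part in 4 of the 8 and 3 of the 6 PMSG calls and in none in hCG. The count over the 7 sites is therefore a description with no test. Between the 4 sites of the common loops there were 4 and 2 calls in PMSG and 0 and 1 in hCG, a difference in means of -2.5 calls. The PMSG library with more calls was the deepest of the 4 libraries, and the part of depth was not tested. Calls at Inhba itself numbered 5 and 7 in PMSG and 5 and 5 in hCG.

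These calls joined 10 pairs of sites, of which 5, 3 of them with the site at 328 kb, were called in both PMSG libraries and in neither hCG library. None was called in both hCG libraries. The shortest such pair was the sites at 276 and 328 kb, with 28 contacts over 6.24 in PMSG replicate 1 and 22 over 4.68 in PMSG replicate 2. The sites at 328 and 451 kb shared 32 contacts over 4.28 in PMSG replicate 1, a ratio of 7.47, and 19 over 3.20 in PMSG replicate 2, a ratio of 5.94. The site at 451 kb was also joined to the distal site at 1426 kb, with 51 contacts over 15.7 in PMSG replicate 1 (25 kb bins) and 21 over 2.57 in PMSG replicate 2 (10 kb bins). The 2 calls in hCG were between the sites at 751 and 1426 kb in replicate 1 (41 over 12.95) and those at 276 and 653 kb in replicate 2 (64 over 36.5). Of the 14 calls in PMSG, 8 were in 5 kb bins, 2 in 10 kb bins and 4 in 25 kb bins, while both calls in hCG were in 25 kb bins.

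The region that holds these sites, chr13:16275001-17600000, was picked out after its values were seen, so it has no test of its own. It contained 9 and 7 loops in PMSG and 1 and 1 in hCG, a gap of 6 between the lower PMSG count and the higher hCG count. Its bounds are the outermost partner sites of Inhba. Its loops include the 8 and 6 PMSG calls and the 1 and 1 hCG calls between those sites. Of 1555 other windows of the same length, 6.75% had more loops in both PMSG libraries than in either hCG library. Their gap was at most 3. Sliding the window in 25 kb steps gave 104773 positions clear of this region, with a gap of at most 4 in this direction. In the reverse direction 17 positions reached 6. A region chosen for its gap is apt to stand high among windows that were not, so these comparisons only describe it.

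**Figure D2:**
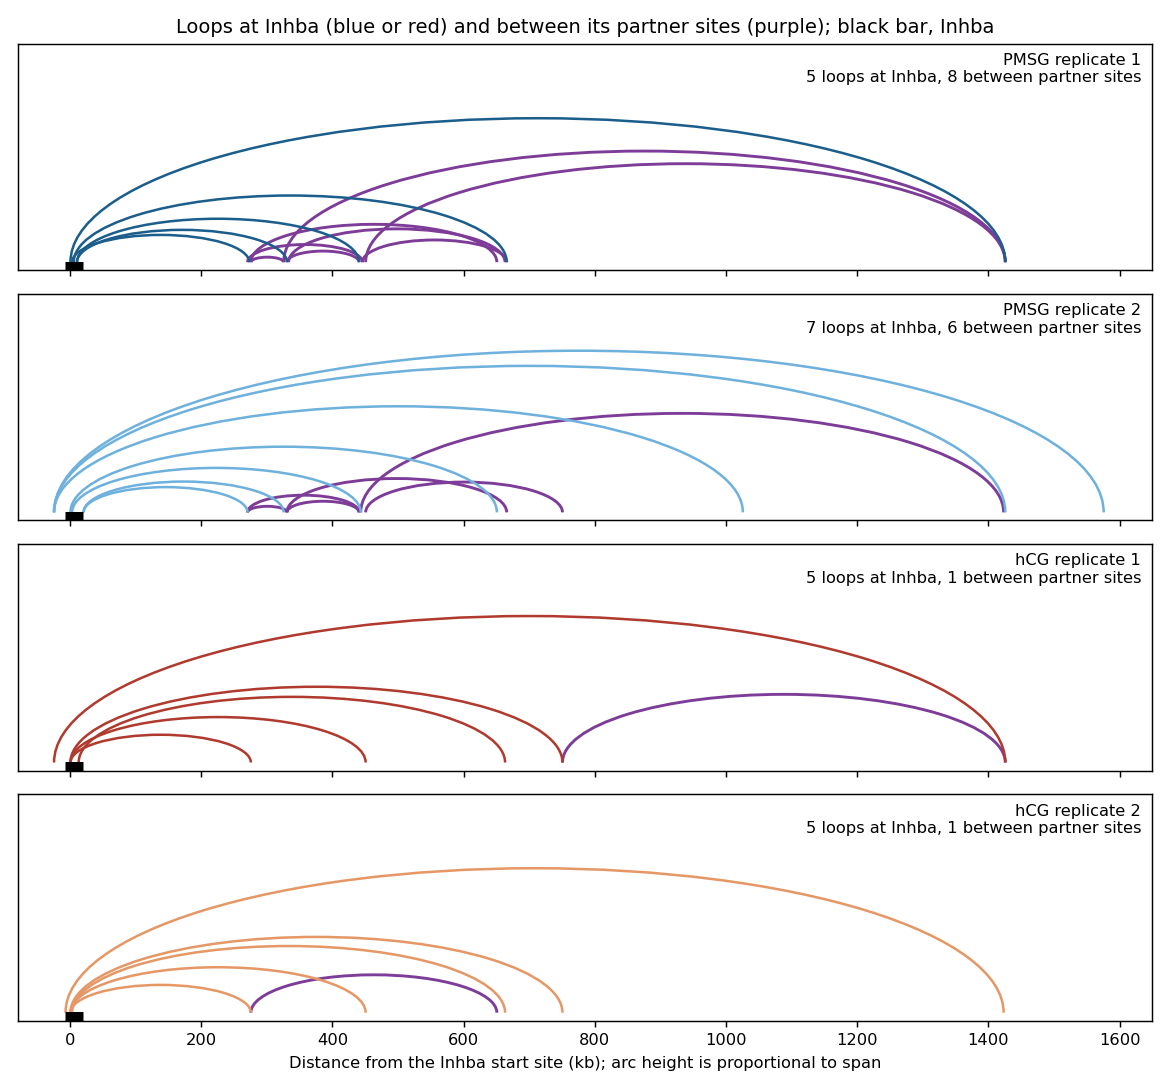
Loops at Inhba in each of the 4 libraries, drawn as arcs against distance from its start site in kb (horizontal axis), with arc height proportional to span and no vertical scale. Calls at the gene number 5, 7, 5 and 5 and calls between its partner sites, in purple, number 8, 6, 1 and 1, and 4 of the arcs from the gene are common to all panels.

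Inhbb (gene ID 16324, chr1:119415463-119422248, minus strand), which encodes the beta subunit of activin B, had a lost loop to Ralb, a small GTPase gene with an end inside the partner anchor chr1:119470001-119480000. The loop had 59 contacts over 26.1 in PMSG replicate 1 and 28 over 9.16 in PMSG replicate 2, ratios of 2.26 and 3.06 in 10 kb bins. Its class was not kept with overlapping anchors or with lists of equal length. A second loop of 320 to 330 kb, ending 20.6 to 35.6 kb from Gli2, the gene of a hedgehog transcription factor, was in 3 libraries. It had 22 contacts over 3.59 in PMSG replicate 1, 73 over 19.2 in PMSG replicate 2 and 39 over 7.48 in hCG replicate 2. In hCG replicate 1 a loop from the same Gli2 side, with 113 contacts over 25.3, ended in Ralb and enclosed Inhbb. The Inhbb region was thus looped toward Gli2 in all 4 lists, while a short loop between Inhbb and Ralb was called in PMSG alone.

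At Inha (gene ID 16322, chr1:75507077-75510366, plus strand), the alpha subunit gene, no loop was gained, lost or common. A loop of 45 to 50 kb to Slc4a3, an anion exchanger gene, was in 3 of the 4 lists. It had 73 contacts over 33.6 in PMSG replicate 1 (10 kb bins). In hCG it had 19 over 3.31 and 18 over 4.51, both in 5 kb bins. It was not in the list of PMSG replicate 2. Loops that enclosed Inha were listed in PMSG only, 1 of 250 kb in replicate 1 (90 contacts over 35.0) and 2 of 225 and 120 kb in replicate 2 (49 over 18.7 and 31 over 6.25). The 25 kb calls of both replicates shared the right bin and had adjacent left bins, so a match within 20 kb could not join them.

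Follistatin, the product of Fst (gene ID 14313, chr13:114452262-114458989), had 13 calls, all anchored at the gene. Its common loop, of 360 to 390 kb, ended inside Arl15. In PMSG replicate 1 it was called as a pair of pixels, with 40 contacts over 12.4 and 44 over 13.4, and PMSG replicate 2 had 22 over 6.33. It had 31 contacts over 7.37 in hCG replicate 1, all these in 10 kb bins, and 120 over 49.5 in hCG replicate 2 in a 25 kb bin. The ratios in 10 kb bins, 3.22, 3.29 and 3.48 in PMSG and 4.21 in hCG, had overlapping 95% Poisson intervals. A longer loop into Arl15, of 575 to 590 kb, was in PMSG replicate 1 (35 over 7.84) and both hCG libraries (23 over 5.10 and 102 over 34.1). A loop of 100 to 115 kb into Ndufs4, a subunit gene of mitochondrial complex I, was in both PMSG libraries (27 over 4.88 and 41 over 10.6) and hCG replicate 1 (124 over 68.2). By the same rule Fst and Acvr2a had 3 partner sites each. Calls between those of Fst numbered 1, 0, 0 and 1, and those of Acvr2a had none.

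Fstl3 (gene ID 83554, chr10:79777274-79782630, plus strand) had a gained loop of 75 to 90 kb. In hCG replicate 1 it ran from the bin holding the Fstl3 start site to Bsg, the basigin gene, with 12 contacts over 2.01. In hCG replicate 2 it ran from a bin 7.73 kb from that start site to Gzmm, a granzyme gene beside Bsg, with 16 contacts over 2.80. The ratios were 5.98 and 5.71, in 5 kb bins. Counts were low, with 95% Poisson intervals of 3.09 to 10.4 and 3.26 to 9.27, and the class was not kept with overlapping anchors or where all 4 FDR values had to be at most 0.01. The other Fstl3 loop, toward Palm, was in PMSG replicate 1 (25 over 9.19) and hCG replicate 1 (32 over 11.2).

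Among the receptors, Acvr2a (gene ID 11480, chr2:48814109-48903264, plus strand) had the most calls. In 14 of its 15 calls the anchor did not contain the start site, and those of its common and lost loops lay near or past the far end of the gene. One pixel, joining chr2:48000001-48010000 to chr2:48880001-48890000 over 880 kb, was called in all 4 lists at the same position. It had 20 and 22 contacts in PMSG and 22 and 19 in hCG, over 3.14, 3.16, 2.78 and 2.68 expected. The ratios, 6.37 and 6.97 in PMSG and 7.91 and 7.09 in hCG, did not differ beyond their 95% Poisson intervals, of which the widest ran from 4.96 to 12.0. In edgeR's quasi-likelihood test its log2 change was 0.17 (SE 0.226, adjusted p = 0.967), with 2 libraries a group. The median log2 change over all 435 pixels of that fit was 0.118. The SE given for edgeR is the log2 change divided by the square root of the F statistic. It was 0.226 here and 0.282 with pixels matched within 20 kb, while edgeR's unadjusted p was 0.591 in both fits. This SE is therefore approximate and can understate the error.

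The other common loop of Acvr2a, of 400 to 410 kb, ended at Mbd5, a methyl-CpG binding domain gene. It had 38 and 34 contacts over 5.31 and 6.00 in PMSG and 29 over 5.11 in hCG replicate 1, in 10 kb bins, and 16 over 1.68 in hCG replicate 2 in a 5 kb bin. The lost loop spanned 1100 kb to a site with no gene end near it, with 28 contacts over 5.28 in PMSG replicate 1 (25 kb bins) and 24 over 1.89 in PMSG replicate 2 (10 kb bins), and it was lost again under each of those 5 rules and filters. A still longer loop, of 1390 kb, was in 1 library of each group with 16 contacts over 1.33 in PMSG replicate 2 and 13 over 1.14 in hCG replicate 2. From 1 shared anchor, PMSG replicate 2 had a loop with 33 contacts over 9.76 and PMSG replicate 1 one with 47 over 12.3 to adjacent 25 kb bins in Kif5c, which a match within 20 kb could not join.

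The type I receptor gene Acvr1b (gene ID 11479, chr15:101174072-101213684, plus strand) had a single call, in PMSG replicate 1, of 50 kb to the neighbouring receptor gene Acvrl1 with 27 contacts over 6.40. Acvr2b (gene ID 11481, chr9:119401583-119442148, plus strand) had a single call by the rule, in hCG replicate 1, with 55 contacts over 26.4 in a 25 kb bin. The same loop was in PMSG replicate 1 (20 over 2.94) and hCG replicate 2 (27 over 6.94), in finer bins more than 10 kb from the gene. The loop was thus in 3 of the 4 lists, at bin sizes that differed between them.

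Betaglycan, from Tgfbr3 (gene ID 21814, chr5:107106567-107289629), sat inside 2 common loops. The larger, of 450 to 470 kb, ran from inside Hfm1 toward Brdt, with 94 contacts over 30.4 and 22 over 3.61 in PMSG and 14 over 1.57 and 27 over 6.29 in hCG. The smaller, of 325 to 335 kb, ran from the Cdc7 side, with 27 contacts over 6.13 and 22 over 4.05 in PMSG and 37 over 10.2 and 20 over 3.66 in hCG. Only 2 calls had an anchor at Tgfbr3, 1 of 100 kb in PMSG replicate 1 (175 over 99.6) and 1 of 290 kb in hCG replicate 2 (43 over 14.0).

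**Figure D3:**
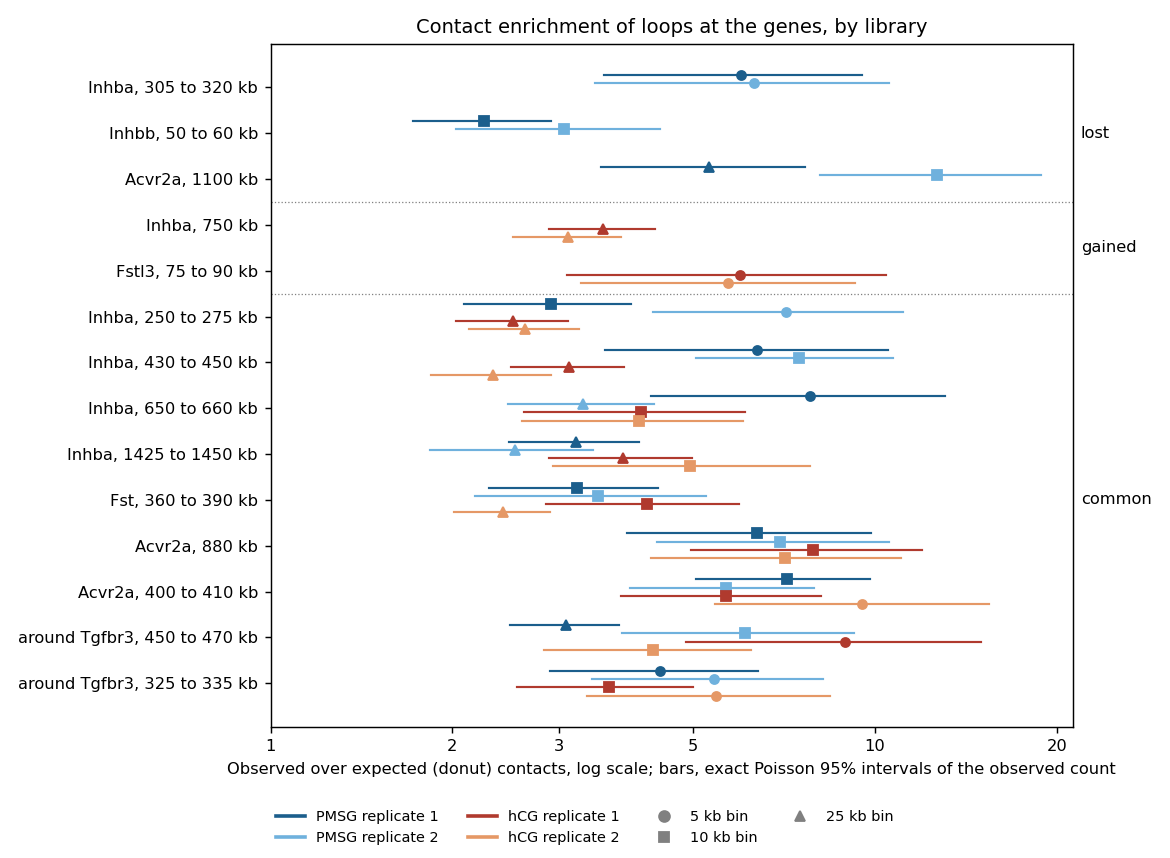
Observed over expected contacts (horizontal axis, log scale) for the 3 lost, 2 gained and 9 common loops at these genes, with 1 point per library that called the loop and exact 95% Poisson intervals of the observed count. For Fst in PMSG replicate 1 the longer of its 2 calls is drawn. Ratios in 25 kb bins (triangles) lie lower than most of those in 5 kb bins (circles), and the 4 libraries overlap at the Acvr2a loop of 880 kb.

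Change in strength was tested with edgeR on the observed counts, against the donut expectation. Of the 435 pixels called in the same place in all 4 lists, 0 passed an adjusted p of 0.05, 0% of those tested, and 29 had an unadjusted p under 0.05. With DESeq2 0 passed, and 1 had an unadjusted p under 0.05. A second fit, added after the data were seen, took all 3859 common loops in any bin size after correcting each expectation for the ratio typical of its bin size and library. In edgeR 0 of the 3859 passed, 0%, and 187 had an unadjusted p under 0.05. Over the 9 common loops at these genes the log2 change from PMSG to hCG ran from -0.57 to 0.30, and edgeR's adjusted p was 0.9998 for each.

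The lowest of these values was that of the Inhba loop at 451 kb (log2 -0.57, SE 0.248). Its unadjusted p in edgeR was 0.0327, beside 187 of all 3859 loops with one under 0.05. The other Inhba loops had values of 0.20 (SE 0.188) at 276 kb, -0.37 (SE 0.213) at 653 kb and 0.30 (SE 0.196) at 1426 kb. These SEs are approximate, as defined for the Acvr2a pixel, and can understate the error. At 276 and 451 kb the PMSG calls were all in finer bins than the hCG calls. Bin size cannot be told apart from group there, and the values rest on the correction for bin size. The value at 276 kb was -0.02 without PMSG replicate 1. At 451 kb it stayed below 0 without any single library, with -0.82 without PMSG replicate 1 and -0.17 without PMSG replicate 2. The loops at Acvr2a, Fst and Tgfbr3 lay between -0.26 and 0.13. None of the 9 passed an adjusted p of 0.05 in this test, which does not show that they were equal.

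**Figure D4:**
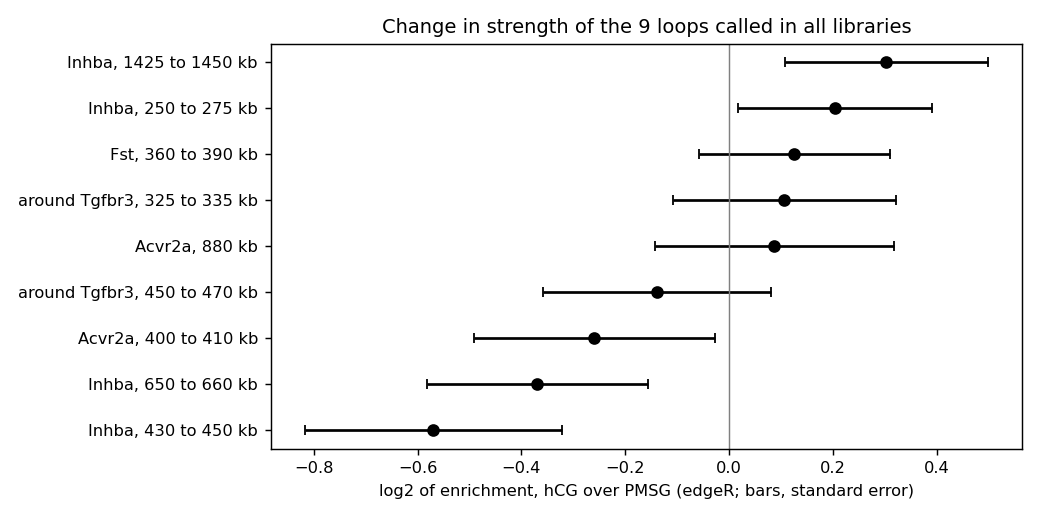
Log2 change of contact enrichment from PMSG to hCG (horizontal axis) for the 9 loops called in all 4 libraries, from edgeR across loops in any bin size. Bars are approximate standard errors, the log2 change divided by the square root of the F statistic, and can understate the error. Values run from -0.57 to 0.30 on both sides of 0.

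The wider activin pathway was read from 20 further genes, among them the type I receptors Acvr1 and Acvr1c, the SMADs and the proteases that process the precursors. Their calls numbered 31 and 27 in PMSG and 30 and 32 in hCG, and these counts overlapped. Of the 20, 1 had a gained loop, 1 had a lost loop, 12 had a common loop and 3 had no call, beside the 6.66%, 5.40% and 36.5% of all genes given above. The gained loops were at Furin, the proprotein convertase that cleaves TGF-beta family precursors. One, of 35 to 40 kb, had 15 contacts over 2.98 in hCG replicate 1 and 20 over 5.35 in hCG replicate 2, and another of 100 kb had 129 over 58.5 and 147 over 76.8. The lost loop was at Pcsk6, a convertase of the same family, where a pixel of 230 kb had 48 contacts over 10.1 in PMSG replicate 1 and 25 over 6.14 in PMSG replicate 2. Loop calls at 8 granulosa marker genes numbered 28, 14, 20 and 23, and at 4 immune markers 1, 2, 2 and 2. At 6 theca and stroma markers there were 16, 12, 15 and 17, at 4 endothelial markers 4, 4, 4 and 5, and at 4 oocyte markers 4, 4, 3 and 3. Loop calls at a marker gene do not measure how many cells of its type were present, and their part in the differences was not tested.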

How the data were processed

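Granulosa cell DNA from 4 ovary Micro-C libraries (2 PMSG, 2 hCG) was compared through their deposited loop lists. Per the labels' protocols, libraries were made with the Dovetail Micro-C kit in 2-3 technical replicates per sample. The submitters' processing notes name BWA, Juicer and mm10, and per the file headers loops were called with HiCCUPS of juicer_tools 1.22.01. Per the file headers, each deposited loop has an observed contact count, expected signal from 4 neighbourhoods (donut, lower left, horizontal, vertical), FDR q-values for each and the number of collapsed pixels, a score. The authors' read filters and FDR settings are not stated in these sources. The highest listed FDR was 0.0994.

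Genes were taken from RefSeq (GRCm38.p6) and sequences from its promoter table, which matched 7 of the 9 genes, not Fst and Tgfbr3. Calls with both anchor midpoints within 20 kb were joined. Partner genes have an end within 2.5 kb of the partner anchor. Observed counts as deposited were tested with edgeR 4.0.16 (R 4.3.3) and an offset of log expectation, with Benjamini-Hochberg adjustment over all pixels, and with DESeq2 1.42.0 as an alternative. Library means were compared with exact permutation tests in scipy 1.17.1, and Poisson intervals are exact, at 95%. Matching and strength scripts were tested on simulated data. All 9 genes are named, with their gained, lost and common loops and pathway genes with a gained or lost loop. Other loops of the 9 genes, the calls between partner sites and their window were chosen after their values were seen. The genes and lists were chosen with earlier results of these data known. Alternatives were other matching distances, stricter lists, other reaches, other expectations and each library left out. The partner of the Acvr2b loop is not reported here.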

Additional observations from a re-analysis of the deposited data

How the results depend on the processing

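Calls at the 9 genes per 1000 loops stayed lower in hCG under the 5 other filters and reaches tried, from -0.98 at an FDR of at most 0.01 to -0.38 with anchored loops only, and between -0.75 and -0.34 without each library. The calls between Inhba partner sites differed by -5.5 at an FDR of at most 0.01 and by -6 with lists of equal length. They differed by -2.5 with the sites of common loops only, and by -7 to -5 without each library. The sites were taken once, from the full lists. Except for the -2.5, they include the site at 328 kb, which came only through the PMSG libraries. These values are therefore a description with no test. The difference in median span was -1.25 kb with anchors within 25 kb, -67.5 kb with anchored loops only, 67.5 kb at an FDR of at most 0.01, 21.2 kb with anchors at the gene itself, and -37.5 to 45 kb without each library. Gained loops numbered 1, at 1 gene, at an FDR of at most 0.01, and lost loops 5 when joined within 10 kb. Without each library, when a single list stands for its group, gained loops numbered 2 to 5 and lost loops 4 to 7, at 2 to 5 and 3 to 6 of the genes, while 9.12% to 21.1% and 9.01% to 23.1% of all genes had one. The edgeR test of 435 pixels called 0 under all other scalings, filters and DESeq2, and 0 to 2 without each library, the 2 without PMSG replicate 2. The Acvr2a pixel ranged from 0.09 to 0.24 without each library. Over common loops in any bin size, 0 to 5 were called without each library, 5 without PMSG replicate 2. In that fit the Inhba loop at 276 kb ranged from -0.022, without PMSG replicate 1, to 0.30, without PMSG replicate 2. Libraries of the same number did not deviate together (correlation -0.0157 over 435 pixels), so the numbers are not taken to pair them. With the replicate block 0 of 435 pixels and 1 of 3859 loops were called, and the Acvr2a value stayed at 0.17. Only called pixels have counts, which limits what the lists can show for a loop that is missing from one.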
